A study of Mus musculus with 3 samples.

Results

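The Day 14 wound section was compared with the Day 7 wound section across genes. Unique molecular identifiers (UMIs, each marking 1 captured RNA molecule) were summed per gene over the spots that the position lists mark as lying under tissue, and each sum was divided by the section's total and multiplied by 1000000 to give a level in counts per that many UMIs (CPM). Of 32285 genes in the matrices, 18214 had a UMI in either section, and the 11746 with 50 or more UMIs over both sections were counted and given a ratio of Day 14 over Day 7. Both sections came from full-thickness excisional wounds in the back skin of C57BL/6J mice, an inbred laboratory strain. The study's methods describe adult males with no other treatment named for these sections. There was 1 section per day, taken 7 or 14 days after injury, and each was placed as a fresh frozen slice on a Visium slide, on which every spot carries its own positional barcode. A spot is a small area of tissue that can hold several cells of different types.

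As background, skin wounds first fill with granulation tissue, a cellular matrix of fibroblasts, macrophages and sprouting vessels under an epidermis that migrates in from the edge. During the later remodelling phase the vessels and cells thin out, collagen is crosslinked and degraded, and the closed epidermis returns to layered differentiation. Hair follicles in the surrounding skin pass through a cycle of growth and rest, and in the growing follicle matrix cells above the dermal papilla divide and differentiate into the inner root sheath and the hair shaft.

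The Day 7 section held 549 marked spots with 4442962 UMIs, and the Day 14 section 697 marked spots with 4611723 UMIs. Median spot depth was 6687 UMIs (Day 7) and 4827 UMIs (Day 14), and mitochondrial transcripts took 3.73% and 5.61% of the UMIs; the part of depth and of this share in the results was not tested. Both sections held the epidermal, dermal and vessel genes of skin, described below, together with skeletal muscle. The slides also held spots that were not marked, with 59.2% of all UMIs on the Day 7 slide and 50.6% on the Day 14 slide. Both slides carry the same set of spot barcodes by design, so barcodes say nothing about shared cells. With 1 section per day there is no replicate and no test. All intervals are 95% intervals for counting error only, so variation from mouse to mouse or slide to slide is not in them. Differences in what each section cut through cannot be told apart from a change over time, and in sums over a section fewer cells of a type cannot be told apart from less RNA per cell.

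A gene was called higher or lower when its CPM differed by 2-fold or more. By this rule 1283 genes (10.9%) were higher on Day 14, 862 (7.34%) were lower and 9601 were within 2-fold. The genes called higher took 2.99% of the UMIs on Day 7 and 10.1% on Day 14, and the genes called lower took 14.5% and 4.82%. Changes of at least 4-fold were found for 356 higher and 147 lower genes, so the longest tail was on the higher side. The median log2 ratio of all genes counted was 0.13, with quartiles at -0.29 and 0.55, and all list values below should be read against that shift. Likewise, list counts should be read against 10.9% higher and 7.34% lower, and a list with 1 or 2 called members of 10 to 20 is near those shares. In any list, a gene with few UMIs in 1 section was counted only through the other, so the minimum fixed its call. With TMM factors the median was 0.00 and the calls were 1075 higher and 1077 lower, so the excess of higher over lower calls depended on the scaling.

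**Figure D1:**
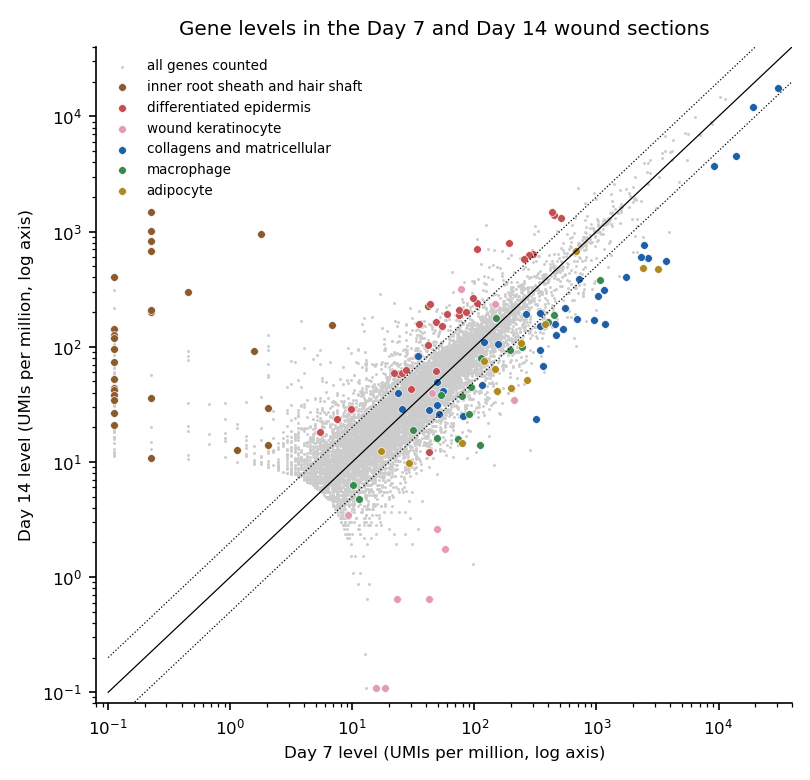
Level of each counted gene in the Day 7 section (x axis) and the Day 14 section (y axis), both in CPM on log axes, with named lists in colour, the line of equal level and dotted lines at 2-fold. Genes with no UMI are drawn at 0.5 counts. Most root sheath and hair shaft genes stand at the left edge, far above the line, most collagen and matricellular genes lie below it at the high end, and several wound keratinocyte genes lie at the bottom.

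The highest ratios belonged to the hair follicle. Of the 15 genes ranked highest by the end of the interval that lies closer to a ratio of 1, 13 were named genes and 2 were predicted genes, and the named ones encode keratins of the inner root sheath and hair shaft, keratin-associated proteins, trichohyalin, S100a3 and Prr9. *Krt71*, which encodes a keratin of the inner root sheath and heads the ranking, had 1 UMI on Day 7 against 6874 on Day 14, a ratio of 6622-fold (95% interval 1188 to 261611). *Krt25* and *Krt27*, its type I partners, had 1 UMI each on Day 7 and 4688 and 3820 UMIs on Day 14. *Krt73* and *Krt28*, further keratins of the inner root sheath, had 1 UMI each on Day 7 and 961 and 927 UMIs on Day 14. *Prr9*, a proline-rich protein gene of the hair shaft, also went from 1 UMI to 3104. None of these genes was measurable above a few molecules on Day 7. On Day 3 *Krt71* and *Krt25* had 0 UMIs and *Krt27* and *Prr9* had 1, so the Day 14 section stood apart from both earlier sections.

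The stretch of 60 bases before the annotated transcription start is shown for hair genes, which had the highest ratios, and for collagens, most of which had ratios below 1. Among list members with a single start in the promoter table, they are the 4 inner root sheath genes and the 2 hair shaft genes with the most UMIs on Day 14 and the 2 collagens with the most on Day 7. Sequences are from RefSeq on GRCm38.p6, which is the mm10 build named in the submitters' processing notes, written 5′ to 3′ on the strand of the gene, and capitals mark the letters TATAAA.
*Krt71*, chr15:101743098-101743157, minus strand: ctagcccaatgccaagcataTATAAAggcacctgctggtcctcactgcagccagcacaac
*Krt25*, chr11:99322952-99323011, minus strand: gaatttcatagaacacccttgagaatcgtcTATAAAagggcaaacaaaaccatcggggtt
*Tchh*, chr3:93442270-93442329, plus strand: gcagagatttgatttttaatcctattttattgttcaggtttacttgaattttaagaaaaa
*Krt27*, chr11:99351119-99351178, minus strand: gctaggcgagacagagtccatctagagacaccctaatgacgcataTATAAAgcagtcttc
*Prr9*, chr3:92123948-92124007, minus strand: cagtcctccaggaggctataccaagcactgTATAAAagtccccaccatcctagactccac
*Krtap3-3*, chr11:99550864-99550923, minus strand: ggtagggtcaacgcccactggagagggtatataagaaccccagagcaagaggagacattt
*Col1a2*, chr6:4505558-4505617, plus strand: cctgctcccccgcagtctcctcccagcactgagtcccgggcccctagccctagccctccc
*Col3a1*, chr1:45311478-45311537, plus strand: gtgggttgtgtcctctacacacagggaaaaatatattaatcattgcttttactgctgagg

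TATAAA, the core of the TATA box, was searched on the strand of the gene from 40 to 16 bases before the start. It was present there in 650 of the 27025 genes of the RefSeq promoter table, or 2.41%. Among the members of the lists with a promoter in that table, it was present in 6 of 13 inner root sheath genes, 8 of 12 hair shaft genes, 3 of 8 wound keratinocyte genes, 8 of 28 differentiated epidermis genes, 2 of 4 mast cell genes and 0 of 15 collagen genes. It was also present in 0 of 7 hair matrix regulators, 0 of 6 melanocyte, 0 of 8 sebaceous, 0 of 6 basal epidermis and 0 of 18 cell cycle genes. No member of those lists was called lower. Of 11 matricellular genes, 2 had it. The motif in *Krt27* begins 15 bases before the annotated start and falls outside this window. The letters CTTTGA, the core bound by LEF1 and TCF factors, were searched on both strands of the 250 bases before the start and were found in 15.8% of all genes, in 2 of 13 inner root sheath genes, 5 of 12 hair shaft genes, 4 of 15 collagen genes and 6 of 9 genes of antigen presentation and T cells, the list with the highest share. Neighbouring genes of these families can share sequence by descent, and a match of letters is a description of the window and not evidence that a factor binds.

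The inner root sheath list had 14 members, of which 13 were matched and counted, and 13 of 13 were higher (10.9% of all genes counted were). Members with few UMIs on Day 7 were counted only through Day 14, so the minimum fixed those calls. The median log2 ratio of the 13 was 7.73, and the summed list was at 54.2 CPM on Day 7 against 5427 CPM on Day 14, a log2 ratio of 6.64 (6.46 to 6.83). *Tchh*, which encodes trichohyalin, the granule protein that hardens the sheath, had 8 UMIs on Day 7 against 4395 on Day 14, 529-fold higher. *Krt26* and *Krt72* had no UMI on Day 7 and 661 and 588 UMIs on Day 14. At a floor of 3 counts on Day 7 that is at least 212-fold and at least 189-fold higher. The members with a Day 7 level were less far apart, since *Gata3*, the transcription factor that directs sheath fate, was at 41.4 CPM on Day 7 against 224 CPM on Day 14 (log2 ratio 2.43, interval 2.21 to 2.67), and *Tgm3*, the transglutaminase that crosslinks trichohyalin, was at 2.03 and 14.1 CPM (log2 ratio 2.8, interval 1.79 to 3.99). *Padi1*, which converts protein arginine to citrulline, had a log2 ratio of 3.48 (2.18 to 5.16), and *Krt75*, the keratin of the companion layer, one of 4.52 (4.0 to 5.1). *Gata3* and *Tgm3* are also expressed outside the sheath, and these genes gave the lower end of the list's range.

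Hair shaft genes had the same direction. Of 24 listed genes, 16 were counted and 16 of 16 were higher (10.9% of all genes counted were), with 4.73 CPM on Day 7 against 2069 CPM on Day 14 for the sum. The whole list had 21 UMIs on Day 7, and 10 of the 16 had none. Members with few UMIs on Day 7 were counted only through Day 14, so the minimum fixed those calls. *Krt35*, a keratin of the shaft cortex and matrix, had 2 UMIs on Day 7 against 1373 on Day 14, and *Krt31*, a cortex keratin, was at 0.225 CPM on Day 7 against 10.8 CPM on Day 14. *S100a3*, a cysteine-rich calcium-binding protein of the hair cuticle, was counted with 0 UMIs on Day 7 against 1867 on Day 14, at least 599.6-fold higher. *Padi3*, the arginine deiminase of the shaft, was at 1.58 CPM on Day 7 against 92.4 CPM on Day 14. Over all keratin-associated protein genes (*Krtap*), the cysteine-rich proteins that crosslink shaft keratins, the count matrix holds 57, of which 25 were counted and all 25 were higher, with a sum of 26 UMIs on Day 7 against 6983 on Day 14. The minimum fixed the calls of the 23 with no UMI on Day 7. *Krtap4-1* was counted with 0 UMIs on Day 7 against 1009 on Day 14, and *Krtap3-3* with 0 against 551. Among the 63 counted genes with no UMI on Day 7 were 23 *Krtap* and 7 *Krt* genes. Members of these families resemble one another in sequence, so how UMIs are divided between close copies is uncertain, whereas the family sum is not affected by that division. The 8 shaft genes not counted were 7 under the minimum and 1 that was not matched to a row.

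The regulators of hair matrix cells were also higher, by smaller factors. Of 18 listed genes 15 were counted, 11 were higher and 0 lower, with a median log2 ratio of 2.34. *Hoxc13*, the homeobox factor that drives hair keratin genes, was at 2.03 CPM on Day 7 against 125 CPM on Day 14 (log2 ratio 5.95, interval 5.01 to 7.08). *Msx2*, needed to keep the shaft in growth, was at 2.03 and 102 CPM, and *Dlx3*, a regulator of shaft and sheath differentiation, at 3.83 and 166 CPM. *Lef1*, the nuclear partner of beta-catenin in Wnt signalling, was at 3.6 and 51.4 CPM, with a log2 ratio of 3.83 (3.11 to 4.67). *Msx2*, *Dlx3* and *Lef1* were each more than 10-fold higher. *Shh*, the ligand made by matrix cells on one side of the growing bulb, had 6 UMIs on Day 7 against 154 on Day 14 (log2 ratio 4.63, interval 3.47 to 6.1). Its receptor *Ptch1* was at 36.7 CPM on Day 7 against 67.4 CPM on Day 14 and its target *Gli1* at 16.4 and 22.1 CPM, with log2 ratios of 0.88 and 0.43, both within 2-fold. *Wnt10b*, a Wnt ligand of the early growing follicle, had a log2 ratio of 2.34 (1.93 to 2.78), *Foxn1*, which couples matrix growth to differentiation and pigment uptake, one of 2.52 (1.81 to 3.3), and *Bmp4*, a signal of papilla and matrix that promotes shaft differentiation, one of 1.52 (1.0 to 2.07).

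Dermal papilla genes did not move in one direction. Only 7 of 14 were counted, 4 higher and 3 lower. *Hhip*, a hedgehog-binding protein, and *Alpl*, the alkaline phosphatase used to stain papillae, had log2 ratios of 3.12 (2.06 to 4.38) and 2.71 (1.69 to 3.9). *Sostdc1*, an antagonist of BMP and Wnt signals, was at 23.4 CPM on Day 7 against 72.2 CPM on Day 14. In the other direction *Crabp1*, a retinoic acid binding protein found in papilla and in upper wound fibroblasts, was at 370.5 CPM on Day 7 against 60.3 CPM on Day 14, and it made up most of the list's UMIs on Day 7, while the summed list had a log2 ratio of -1.09. *Inhba*, the activin A subunit, and *Sox18*, which is also an endothelial gene, had log2 ratios of -1.4 and -1.3. *Corin*, a papilla protease, had 0 UMIs on Day 7 against 31 on Day 14, too few to be counted under the minimum.

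Of the stem cell and outer sheath genes, 5 of 10 were higher and 0 lower. *Krt17*, a keratin of the outer sheath and also of wounded epidermis, was at 105 CPM on Day 7 against 861 CPM on Day 14 (log2 ratio 3.04, interval 2.9 to 3.18). *Sox9*, required for the stem cell pool and the outer sheath, was at 48.6 and 168 CPM, and *Lhx2*, a stem cell and hair germ factor, at 17.6 and 49 CPM. The bulge markers themselves differed less, with log2 ratios of 0.32 (-0.11 to 0.75) for *Lgr5*, 0.97 (0.91 to 1.03) for *Krt15* and -0.63 (-0.8 to -0.45) for *Cd34*, the last of which also marks vessels and fibroblasts. These 3 bulge markers were within 2-fold.

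Pigment cell genes were higher together. Of 12 melanocyte genes 10 were counted, 8 higher and 0 lower, and the sum was 86.4 CPM on Day 7 against 637 CPM on Day 14, a log2 ratio of 2.88 (2.73 to 3.04). *Tyr*, which encodes tyrosinase, the enzyme of the first step of melanin synthesis, was at 2.03 CPM on Day 7 against 56.4 CPM on Day 14. *Tyrp1* and *Dct*, the enzymes of the later steps, were at 4.05 and 96.9 CPM and at 12.4 and 136 CPM, and *Pmel*, the fibril on which melanin is laid down, was at 11.9 and 159 CPM. *Mlana* had the highest ratio of the list, with 3 UMIs on Day 7 against 146 on Day 14. *Mitf*, the transcription factor of the lineage, which has other isoforms in other cells, had a log2 ratio of 0.89 (0.51 to 1.28), and *Sox10*, shared with Schwann cells, one of -0.86 (-1.3 to -0.44), both within 2-fold. The 8 members past 2-fold thus included the pigment enzymes, and the transcription factors were not among them.

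Genes of the sebaceous gland, which opens into the follicle, were higher in 9 of 11 counted and lower in 0, with a sum of 882 CPM on Day 7 against 2225 CPM on Day 14. *Scd3*, a desaturase of sebocytes, was at 19.4 CPM on Day 7 against 136 CPM on Day 14, and *Mc5r*, the melanocortin receptor of the gland, at 3.83 and 30.8 CPM. *Elovl4*, which extends very long fatty acids and is used by the epidermis too, was at 332 and 1015 CPM. *Awat1* and *Awat2*, wax ester synthases, had log2 ratios of 2.52 (1.92 to 3.18) and 2.09 (1.24 to 3.04). The median log2 ratio of the gland genes was 1.49, against 7.73 for the sheath.

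**Figure D2:**
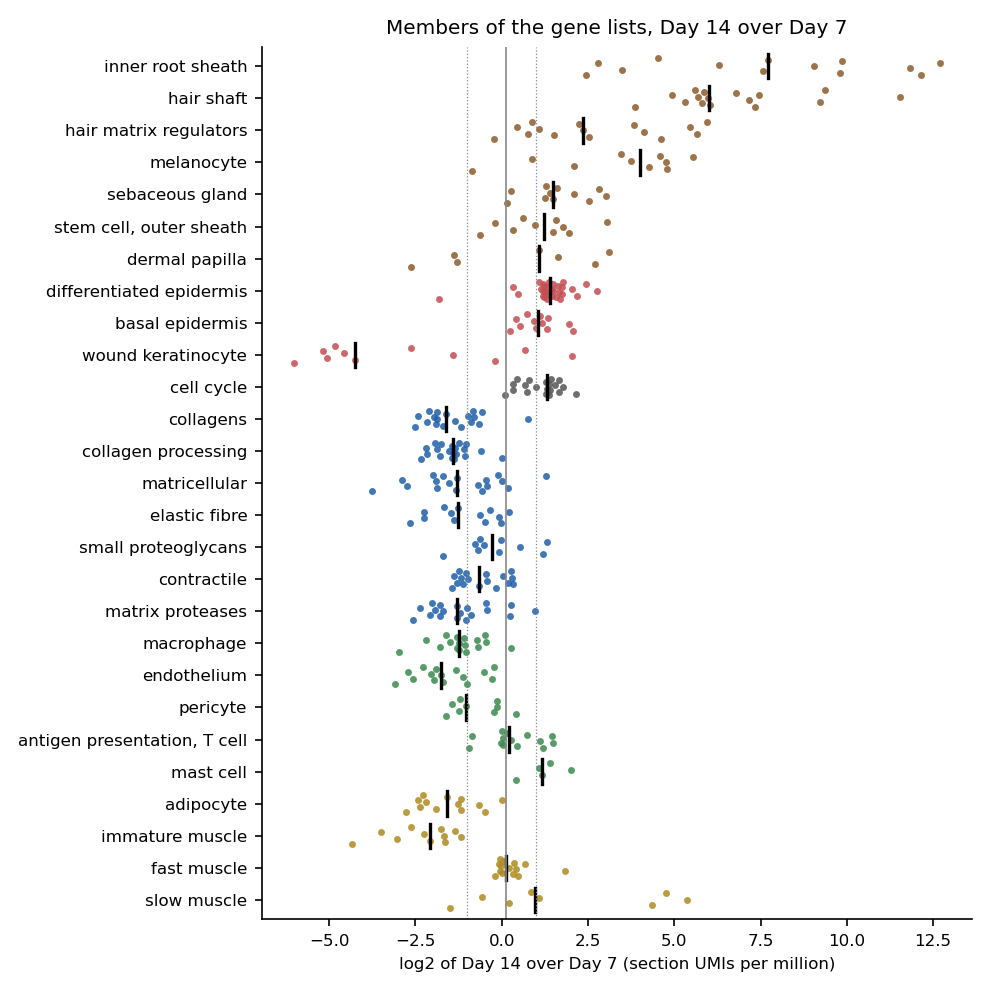
Each point is a counted gene of a list, placed by its log2 ratio of Day 14 over Day 7 in section CPM (genes with no UMI set at 3 counts). Black bars are list medians, the grey line is the median of all genes at 0.13 and dotted lines are at 2-fold. Inner root sheath and hair shaft lists lie entirely past 2-fold higher, while collagen processing and adipocyte genes lie mostly past 2-fold lower.

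The hair signal was not spread evenly over the Day 14 section. Spots in which a set of hair keratins took over 1% of UMIs numbered 0 on Day 7 and 50 on Day 14, which were 7.17% of the Day 14 spots and 13.8% of its UMIs. The selector genes are themselves hair genes, so the level of hair genes in these spots is a consequence of the choice. These 50 spots held 37.5% of the inner root sheath UMIs, at 14753 CPM against 3937 CPM in all other Day 14 spots. The level in the other spots was thus itself well above the 54.2 CPM of the Day 7 section, and leaving out the 50 spots gave a log2 ratio of 6.18 in place of 6.64. Genes that did not define these spots also differed there. Melanocyte genes were at 1194 CPM in hair spots and 548 CPM elsewhere, matrix regulators at 1674 and 818 CPM, and cell cycle genes at 3448 and 2468 CPM. Differentiated epidermis genes were lower in hair spots, at 5498 against 10893 CPM, and so were collagens, at 27810.4 against 40116 CPM. The spots of 1 section are not replicates, and these values describe that section. The study's wound-site annotation was not used here, so whether the follicles lay in the healed wound or in the skin beside it cannot be told apart.

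**Figure D3:**
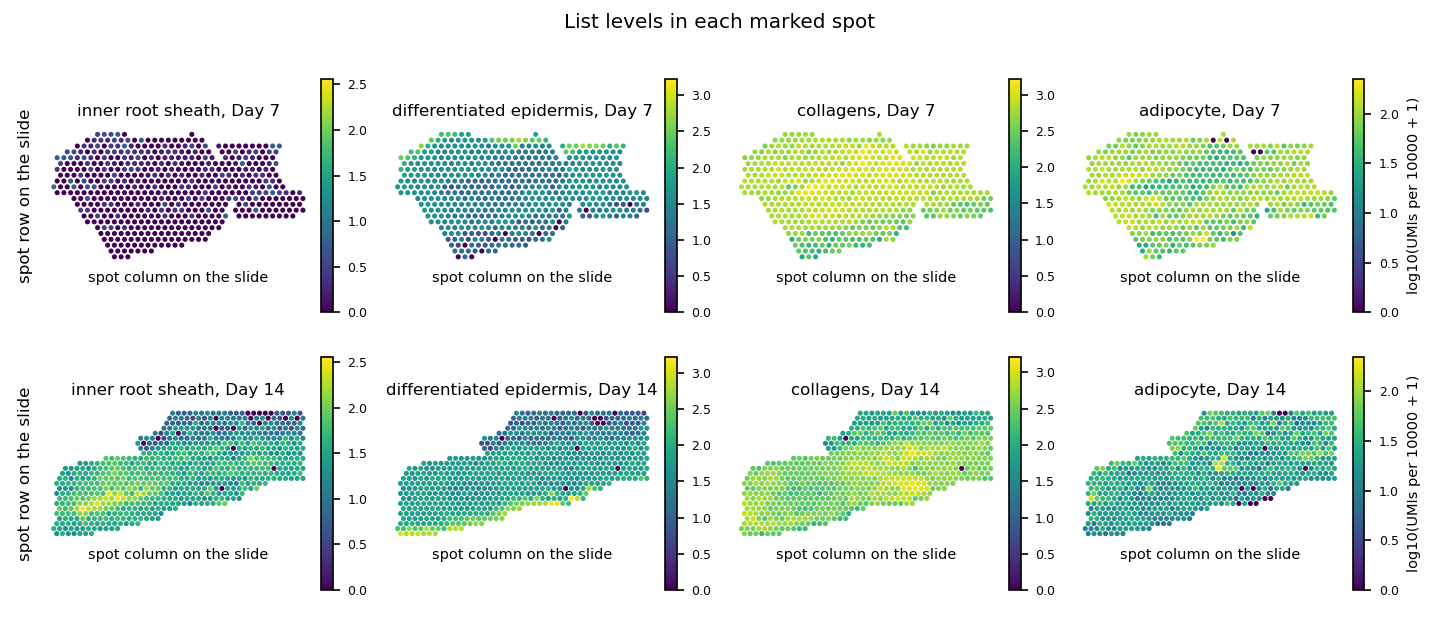
Marked spots of the Day 7 section (top row) and the Day 14 section (bottom row) at their row and column on the slide, coloured by log10 of list UMIs per 10000 UMIs of the spot plus 1, on a shared scale for each list. The inner root sheath signal of Day 14 forms a band in the left part of the section, away from the differentiated epidermis along the edge and the collagen-rich area further right, and the adipocyte signal is higher over most of the Day 7 section.

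Epidermal differentiation genes were higher on Day 14 almost throughout. Of 31 listed genes 30 were counted, 27 were higher and 1 lower, with a median log2 ratio of 1.41 and a sum of 3523 CPM on Day 7 against 10149.8 CPM on Day 14. *Lor*, which encodes loricrin, the main protein of the cornified envelope, was at 435 CPM on Day 7 against 1491 CPM on Day 14 (log2 ratio 1.78, interval 1.7 to 1.85). *Krt1*, the partner of *Krt10* in the suprabasal layers, was at 509 and 1315 CPM. *Flg2*, a filaggrin-like protein of the granular layer, was at 43.4 and 235 CPM, and *Ivl*, the early envelope protein involucrin, at 5.4 and 18 CPM. The late cornified envelope 1 genes ran from a log2 ratio of 0.48 for *Lce1k* to 2.75 for *Lce1m*, and *Lce1k* was the member of that family within 2-fold. The exception was *Rptn*, an envelope gene tied to thickened epidermis, which was lower, at 42.8 CPM on Day 7 against 12.1 CPM on Day 14 (log2 ratio -1.82, interval -2.27 to -1.38). *Casp14*, the protease of cornification, was at 48.4 and 60.9 CPM, within 2-fold.

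Basal keratinocyte genes were higher by less, 6 of 12 past 2-fold and 0 lower. *Krt14*, the basal keratin, was at 953 CPM on Day 7 against 2151 CPM on Day 14 and its partner *Krt5* at 986 and 1903 CPM, with log2 ratios of 1.17 (1.12 to 1.23) and 0.95 (0.9 to 1.0), on opposite sides of the 2-fold limit. *Cdh3*, a cadherin of basal and hair matrix cells, had a log2 ratio of 2.05 (1.79 to 2.32), and *Trp63*, the master transcription factor of stratified epithelia, one of 1.94 (1.69 to 2.2). The integrin chain *Itga6*, which anchors basal cells in hemidesmosomes, was at 51.8 CPM on Day 7 against 61.4 CPM on Day 14 and had the smallest ratio of the list. Several of these genes are also expressed in the follicle, and spots rich in epidermal genes held 8.43% of the UMIs on Day 7 and 19% on Day 14.

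Genes listed for wound-activated keratinocytes ran against both groups in the marked spots. Of 25 listed wound keratinocyte genes 11 were counted, 8 lower and 1 higher, with a median log2 ratio of -4.26. Of all genes counted, 7.34% were lower and 10.9% higher. Members with few UMIs on Day 14 were counted only through Day 7, so the minimum fixed those calls. *Krt6b*, a keratin of migrating keratinocytes, had 187 UMIs on Day 7 against 3 on Day 14, a level 64.7-fold (95% interval 21.8 to 317) lower, and on Day 3 it stood at 398 CPM. *Krt16*, its usual partner, was at 212 CPM on Day 7 against 34.5 CPM on Day 14 (log2 ratio -2.62, interval -2.87 to -2.38). *Sprr1b*, an envelope protein of stressed epidermis, was at 49.7 and 2.6 CPM and *Lce3c*, a late envelope gene induced by barrier damage, at 57.8 and 1.73 CPM. The 3 genes with no UMI on Day 14 among all genes counted, *Sprr2d*, *Sprr2h* and *Lce3b*, are small proline-rich or late envelope genes too, with 83, 69 and 57 UMIs on Day 7. The minimum fixed the calls of these 3. At a floor of 3 counts they were 28.7-fold, 23.9-fold and 19.7-fold lower. The ends of their 95% intervals nearer to no change were 22.8-fold, 18.9-fold and 15.5-fold. *Lce3f*, also among the 15 lowest, had 104 UMIs on Day 7 against 3 on Day 14. Reads of *Sprr2* and *Lce3* genes can be split between close copies, which makes the single values uncertain.

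The wound keratinocyte list did not behave as a unit. *Sprr1a*, the close relative of *Sprr1b*, was higher, at 77.2 CPM on Day 7 against 318 CPM on Day 14 (log2 ratio 2.04, interval 1.87 to 2.22), and *Krt6a*, which is also a companion layer keratin of the follicle, was at 147 and 237 CPM. The summed list was at 726 CPM on Day 7 against 639 CPM on Day 14, and *Sprr1a* and *Krt6a* made up most of its level on Day 14. Among epidermis-rich spots, the 10% with the highest share of UMIs in *Krt5*, *Krt14*, *Perp* and *Sfn*, 38 of 55 on Day 7 and 12 of 70 on Day 14 were also over the muscle limit of 5% of UMIs, and the lowest share that put a spot in the class was 0.438% on Day 7 and 0.778% on Day 14. The part of this in the values was not tested. In these spots *Krt6b* had 29 UMIs on Day 7 against 0 on Day 14, and *Lor* had 1615 and 3869.7 CPM.

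Cell cycle genes were higher, 12 of 20 past 2-fold and 0 lower, with a median log2 ratio of 1.3. *Mki67*, the proliferation marker Ki-67, was at 36.5 CPM on Day 7 against 124 CPM on Day 14 (log2 ratio 1.76, interval 1.51 to 2.02), and *Top2a*, the topoisomerase of dividing cells, at 28.1 and 88.7 CPM. *Hmgb2*, a chromatin protein of cycling cells, was at 82.2 and 362 CPM, and *Cdk1*, the kinase of mitotic entry, at 30.6 and 79.6 CPM. *Tubb5*, a tubulin made in most cells, was at 825 and 879 CPM and marked the lower end of the list. The 50 hair spots, with 13.8% of the UMIs, held 18.2% of the list's UMIs. Leaving them out gave a summed log2 ratio of 0.72 in place of 0.8.

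Genes of the collagen matrix had the opposite direction. Of 19 collagen genes all 19 were counted, 12 were lower (7.34% of all genes counted were) and 0 higher, with a median log2 ratio of -1.6. The summed list was at 78256 CPM on Day 7 against 38419.9 CPM on Day 14, a log2 ratio of -1.03 (-1.03 to -1.02). *Col3a1*, the collagen laid down early in repair, was at 13815 CPM on Day 7 against 4544 CPM on Day 14 (log2 ratio -1.6, interval -1.63 to -1.58), whereas *Col1a2*, a chain of the collagen that dominates mature dermis, was at 19126 and 12144 CPM (log2 ratio -0.66, interval -0.67 to -0.64) and *Col1a1*, its partner, had a log2 ratio of -0.81 (-0.82 to -0.79). Type I chains were within 2-fold, and type III was lower by 3.04-fold. The chains that regulate fibril width were lower by more. *Col5a1* was at 2656 and 595 CPM and *Col5a3* at 365 and 67.7 CPM, and *Col12a1*, which bridges fibrils under tension, was at 963 and 169 CPM (log2 ratio -2.51, interval -2.62 to -2.4). The microfibrillar chains *Col6a1*, *Col6a2* and *Col6a3* had log2 ratios of -1.71, -1.96 and -2.11, and *Col7a1*, the anchoring fibril collagen of the dermal border, one of -1.9. *Col11a1*, a fibril-nucleating collagen, was the one chain with a ratio above 1, at 23.6 and 39.7 CPM, within 2-fold.

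**Figure D4:**
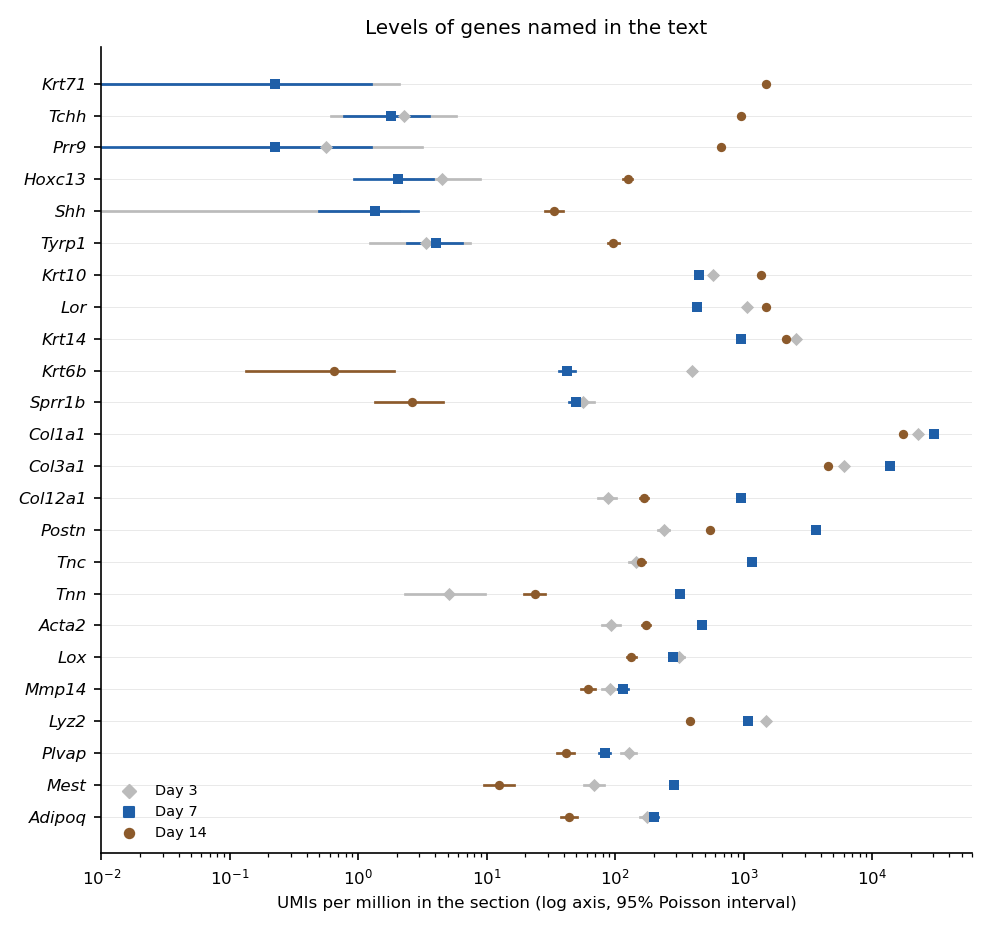
Levels of 24 genes in the Day 3 (grey), Day 7 (blue) and Day 14 (brown) sections in CPM on a log axis, with exact Poisson 95% intervals that cover counting error only. Hair genes are high on Day 14 alone, *Krt6b* is lowest on Day 14, and *Postn*, *Tnc*, *Tnn* and *Mest* are highest on Day 7.

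Most of the enzymes that modify and crosslink collagen were lower. Of 20 counted genes 18 were lower and 0 higher, with a median log2 ratio of -1.42. *Serpinh1*, the collagen chaperone HSP47, was at 2416 CPM on Day 7 against 895 CPM on Day 14 (log2 ratio -1.43, interval -1.48 to -1.38). *Lox*, the founding crosslinking oxidase, was at 283 and 134 CPM, and *Loxl3*, its relative, at 58.3 and 11.5 CPM (log2 ratio -2.34, interval -2.8 to -1.91). The lysyl hydroxylase *Plod2*, whose crosslinks are typical of scar, was at 17.6 and 5.2 CPM, and *Bmp1*, which cleaves the procollagen tail, at 592 and 204 CPM. The 2 members within 2-fold were *P4ha1*, a prolyl hydroxylase subunit that hypoxia induces in many cells, at 72.5 and 73.5 CPM, and *Adamts14*, a procollagen peptidase, at 46.4 and 30.6 CPM. The relative *P4ha3* was lower, with a log2 ratio of -2.19 (-2.63 to -1.77).

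The matricellular list, made of genes whose products modulate cells together with matrix components such as *Fn1* and *Vcan*, held some of the lowest ratios of the section. Of 18 counted genes 10 were lower and 1 higher, and the sum was at 17833 CPM on Day 7 against 5840.3 CPM on Day 14. *Tnn*, tenascin W, was at 319 CPM on Day 7 against 23.6 CPM on Day 14 (log2 ratio -3.75, interval -4.05 to -3.47), and *Tnc*, tenascin C, at 1172 and 158 CPM (log2 ratio -2.89, interval -3.0 to -2.78), and both were among the 15 lowest of all genes counted. *Postn*, the periostin that marks granulation fibroblasts, had 16405 UMIs on Day 7 against 2537 on Day 14, a log2 ratio of -2.75 (-2.81 to -2.69). *Fn1*, the fibronectin of the provisional matrix, was at 1029 and 275 CPM, and *Thbs2*, an antiangiogenic thrombospondin, at 694 and 174 CPM. *Cthrc1*, a secreted marker of activated fibroblasts, had a log2 ratio of -1.89 (-2.02 to -1.75). Against these, *Ccn2*, connective tissue growth factor, was higher, at 34.2 and 83.3 CPM (log2 ratio 1.28, interval 1.01 to 1.56), while *Ccn4* was lower (log2 ratio -1.69, interval -2.01 to -1.39) and *Vcan*, the proteoglycan versican that is also made by the dermal papilla, was at 119 and 110.2 CPM, within 2-fold.

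Contractile genes did not move as a block. Of 17 counted genes 7 were lower and 0 higher. *Acta2*, the smooth muscle actin of myofibroblasts, had a log2 ratio of -1.44 (-1.56 to -1.33), *Myl9*, a smooth muscle light chain, one of -1.37 (-1.55 to -1.19), and *Tagln*, an actin-binding protein, one of -1.13 (-1.34 to -0.93). *Lrrc15* and *Cdh11*, surface proteins of activated fibroblasts, were at 369.6 and 180.0 CPM and at 314 and 134 CPM, and *Itga11*, a collagen-binding integrin chain, at 61.7 and 25.2 CPM. *Tpm1* and *Tpm2*, tropomyosins that skeletal muscle also makes, were at 5587 and 7022 CPM and at 1363 and 1658 CPM, and they hold most of the UMIs of the list, whose sum had a log2 ratio of 0.08 (0.06 to 0.09), a sign that turned with TMM factors.

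Part of the elastic fibre genes was lower. Of 13 counted genes 7 were lower and 0 higher. *Efemp2*, the fibulin 4 that guides elastin assembly, was at 162 CPM on Day 7 against 25.8 CPM on Day 14 (log2 ratio -2.65, interval -2.94 to -2.37), *Emilin1*, an elastic fibre glycoprotein, at 189 and 39.9 CPM and *Fbn1*, the microfibril scaffold fibrillin, at 702 and 292 CPM. *Eln*, elastin itself, was at 374 and 355 CPM (log2 ratio -0.07, interval -0.17 to 0.02), and *Fbln5*, which tethers elastin to cells, at 83.3 and 59.4 CPM. Fibrillin was thus past 2-fold and elastin was not.

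Small leucine-rich proteoglycans coat and space collagen fibrils. Of 10 counted, 2 were higher and 1 lower, counts near the shares over all genes (10.9% and 7.34%). *Bgn*, biglycan, was at 2145 CPM on Day 7 against 658 CPM on Day 14 (log2 ratio -1.7, interval -1.76 to -1.65). *Dcn*, decorin, had a log2 ratio of -0.5 (-0.57 to -0.43), and *Lum*, lumican, one of -0.69 (-0.75 to -0.63), both within 2-fold. *Fmod*, fibromodulin, which ends fibril growth in mature tissue, was at 36.2 and 83.5 CPM (log2 ratio 1.2, interval 0.93 to 1.48), and *Kera*, keratocan, a tendon and cornea proteoglycan, at 3.15 and 7.81 CPM (log2 ratio 1.31, interval 0.38 to 2.31). Without muscle, hair and fat spots *Kera* turned to a lower level on Day 14, so its direction rested on which spots were kept.

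The granulation fibroblast list held genes that the study named for its fibroblast subclusters with *Postn* and with *Acta2*. Of these, 11 were lower and 0 higher of 14 counted. The study also tied subclusters with *Pi16*, with macrophage genes and with cell cycle genes to granulation tissue, and these were left out of the list. Genes it used for remodelling fibroblasts were 6 lower and 0 higher of 14. The study drew those lists from single cells of wounds on the same days, so they are not independent evidence of direction. *Igf1*, a growth factor of repair fibroblasts and macrophages, was at 172 CPM on Day 7 against 43.8 CPM on Day 14 (log2 ratio -1.97, interval -2.2 to -1.75), *Mmp3*, a stromelysin, at 266 and 77.2 CPM, and *Cilp*, a matrix protein that binds TGF beta, at 99.5 and 40.1 CPM. *Mfap4*, an elastic fibre protein, was at 698 and 554 CPM, and *Pcolce2*, an enhancer of procollagen cleavage, at 20.5 and 28.2 CPM, both within 2-fold. As sums over the section, the granulation list had a log2 ratio of -0.8 (-0.82 to -0.78) and the remodelling list one of -0.67 (-0.71 to -0.63). The granulation member with the most UMIs was *Tpm1*, which skeletal muscle also makes, so that sum leans on a gene shared with muscle. The median log2 ratios of the members were -1.4 for the granulation list and -0.72 for the remodelling list. Of 8 genes used for a fibroblast subcluster with *Pi16*, a marker shared by fibroblasts of many tissues, *Pi16* itself was higher, at 129.9 and 266 CPM, and none was lower. *Dpp4*, a marker of fascial progenitors, was at 24.1 and 37.7 CPM.

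Matrix proteases were lower together with the matrix. Of 19 counted 13 were lower and 0 higher, and the median log2 ratio was -1.31. *Mmp2*, the member with the most UMIs and a gelatinase of fibroblasts, was at 789 CPM on Day 7 against 319 CPM on Day 14 (log2 ratio -1.31, interval -1.4 to -1.22). *Plat*, the tissue plasminogen activator, was at 159 and 26.5 CPM, and *Adam12*, a marker of activated perivascular and fibroblastic cells, at 167 and 32.3 CPM. *Mmp14*, the membrane protease that activates gelatinase, had a log2 ratio of -0.9 (-1.11 to -0.69), and *Mmp13*, a collagenase, one of 0.97 (0.74 to 1.21), on the other side of no change. Among inhibitors, *Timp1*, the inducible inhibitor of repair, was at 196 and 54.2 CPM (log2 ratio -1.85, interval -2.06 to -1.65), whereas *Timp3* was at 151 and 186 CPM. *Cst6*, a cystatin of epidermis and follicle, was higher, at 143 and 509 CPM.

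Signalling genes of the TGF beta pathway were 5 lower and 1 higher of 15, beside 7.34% and 10.9% of all genes, with a median log2 ratio of -0.53. *Tgfb3*, the isoform with a late course in repair, was at 84.6 CPM on Day 7 against 25.6 CPM on Day 14 (log2 ratio -1.73, interval -2.04 to -1.42), *Tgfb2* had a log2 ratio of -1.17 and *Tgfb1* one of -0.53. *Lrrc32*, which presents latent TGF beta on the cell surface, was at 62.6 and 13.4 CPM, and the receptor *Tgfbr2* at 204 and 87.4 CPM. *Bambi*, a decoy receptor that dampens the pathway, was higher, at 20.7 and 86.7 CPM (log2 ratio 2.07, interval 1.74 to 2.41). Wnt antagonists were 3 higher and 1 lower of 9. *Wif1*, made by the hair follicle and dermis, was at 14.4 and 70.7 CPM, and *Notum*, an enzyme that inactivates Wnt ligands and is made by the papilla, at 2.48 and 9.32 CPM. *Sfrp2*, a fibroblast product, was lower, at 223 and 53.8 CPM (log2 ratio -2.05, interval -2.26 to -1.85).

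Insulin-like growth factor genes were 5 lower and 2 higher of 12 counted. *Igf2*, the fetal growth factor, was at 52.2 CPM on Day 7 against 13 CPM on Day 14 (log2 ratio -2.0, interval -2.44 to -1.59). The binding protein *Igfbp7*, abundant in vessels, was at 1134 and 310.1 CPM, and *Igfbp3* at 325 and 119 CPM. *Igfbp2* was higher, at 30.2 and 98 CPM, and the receptor *Igf1r* was at 23.4 and 37.5 CPM, within 2-fold. Both ligands were thus lower by close to the same factor.

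Imprinted growth genes formed a further lower group, 9 of 13 counted and 0 higher. *Mest*, with the lowest ratio of them, was at 286 CPM on Day 7 against 12.6 CPM on Day 14 (log2 ratio -4.51, interval -4.91 to -4.13), and at 68.8 CPM on Day 3. *H19*, a noncoding RNA of fetal and regenerating tissue, was at 678 and 101 CPM (log2 ratio -2.75, interval -2.89 to -2.61), and *Dlk1*, a Notch-like ligand of progenitors, at 27 and 2.39 CPM. *Cdkn1c*, a cell cycle inhibitor, had a log2 ratio of -1.63 (-2.0 to -1.27). *Nnat* was at 32.9 and 40.8 CPM and *Zim1* at 17.6 and 15.8 CPM, within 2-fold.

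Macrophage genes were lower in 12 of 17 counted and higher in 0, with a sum of 3234 CPM on Day 7 against 1416 CPM on Day 14. *Lyz2*, lysozyme of myeloid cells, had a log2 ratio of -1.49 (-1.57 to -1.41). *Trem2*, the lipid receptor of repair macrophages, was at 112 CPM on Day 7 against 14.1 CPM on Day 14 (log2 ratio -2.99, interval -3.39 to -2.62), and *Ms4a7*, a marker of monocyte-derived macrophages, at 72.7 and 15.8 CPM. *Cd68*, a lysosomal protein of phagocytes, was at 90.7 and 26 CPM, and *C1qa*, the complement chain made by tissue macrophages, at 399.7 and 163 CPM. *Mrc1*, the mannose receptor of resident and repair macrophages, was at 79 and 37.1 CPM, and *Csf1r*, the receptor on which the lineage depends, at 113 and 79.8 CPM, within 2-fold. *Gpnmb*, which is also made by pigment cells, was at 149 and 179 CPM and was the list's highest ratio.

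Other immune groups differed in direction. Neutrophil genes had few UMIs on both days, with 5 of 13 counted, 1 higher and 1 lower, with *S100a8* at 13.3 and 17.1 CPM. Of 14 counted genes of antigen presentation and T cells 4 were higher and 0 lower. *Cd74*, the chain that guides MHC class II, was at 608 CPM on Day 7 against 624 CPM on Day 14 (log2 ratio 0.04, interval -0.04 to 0.11). The T cell genes *Cd3e* and *Trdc*, the second being the constant chain of gamma delta T cells, which reside in mouse epidermis, were at 6.75 and 18.9 CPM and at 5.4 and 15 CPM. The T cell receptor chain *Trbc2* had a log2 ratio of 1.12 (0.63 to 1.62). These T cell genes were past 2-fold, *Cd3d* (log2 ratio 0.74) was not, and the class II genes were at about the same level. Mast cell genes were 4 higher and 0 lower of 5 counted, with *Cpa3*, the mast cell carboxypeptidase, at 4.28 and 17.3 CPM (log2 ratio 2.02, interval 1.28 to 2.83) and *Mcpt4*, a chymase, at 23.2 and 48.8 CPM. In the unmarked spots the summed mast cell list had a log2 ratio of -0.04 (-0.25 to 0.18), against 1.1 (0.87 to 1.32) in marked spots.

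Endothelial genes were lower in 12 of 15 counted and higher in 0, with a median log2 ratio of -1.76. *Aplnr*, the apelin receptor of sprouting vessels, was at 104 CPM on Day 7 against 12.1 CPM on Day 14 (log2 ratio -3.1, interval -3.52 to -2.69), *Apln*, its ligand in tip cells, at 18 and 3.69 CPM and *Angpt2*, which loosens vessels for sprouting, at 14.2 and 2.17 CPM. *Cldn5*, a junction protein, was at 66.2 and 11.1 CPM, and *Kdr*, the main VEGF receptor, at 28.6 and 8.46 CPM. *Flt1* and *Tek*, further vessel receptors, were at 19.4 and 16.5 CPM and at 23.9 and 19.5 CPM, within 2-fold. Pericyte genes were lower in 5 of 9 counted. *Rgs5*, the usual pericyte marker, had a log2 ratio of -1.61 (-1.8 to -1.42), and *Pdgfrb*, the receptor that recruits pericytes, was at 169.9 and 62.7 CPM. *Notch3* was at 54.2 and 49.7 CPM, within 2-fold.

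Fat and muscle, which lie under the dermis of mouse skin, also differed between the sections. Adipocyte genes were lower in 10 of 13 counted and higher in 0, and the sum was at 7906 CPM on Day 7 against 2211 CPM on Day 14. *Fabp4*, the fatty acid carrier, was at 3199.7 CPM on Day 7 against 470.1 CPM on Day 14 (log2 ratio -2.77, interval -2.83 to -2.7), and *Adipoq*, adiponectin, at 201 and 43.8 CPM. *Thrsp*, a lipogenic gene among the 15 lowest, had 641 UMIs on Day 7 against 43 on Day 14. *Car3*, a carbonic anhydrase that skeletal muscle shares, was at 678 and 677 CPM. *Ucp1*, the uncoupling protein of thermogenic fat and the first of the 15 lowest, had 430 UMIs on Day 7 against 6 on Day 14, and 0 UMIs on Day 3. On Day 7 *Ucp1* was at 311 CPM (2007 UMIs) in unmarked spots, against 96.8 CPM in marked ones. Of the 7 thermogenic genes counted it was the 1 called lower, *Elovl3*, which sebaceous glands also use, was the 1 called higher (log2 ratio 1.25, interval 0.98 to 1.53), and *Cidea*, a lipid droplet protein, was at 62.6 and 44 CPM. Spots in which fat genes took over 1% of UMIs numbered 128 on Day 7 and 5 on Day 14. Of the remaining named genes among the 15 lowest, *Tmem26* had 137 UMIs on Day 7 against 9 on Day 14, *Stra6*, the retinol transporter, 154 UMIs on Day 7 against 12 on Day 14, and *Ptprn*, a secretory granule protein, 56 UMIs on Day 7 against 1 on Day 14.

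Skeletal muscle genes were abundant in both sections. Fast fibre genes summed to 60330.5 CPM on Day 7 against 69062 CPM on Day 14, 1 of 14 higher and 0 lower. *Acta1*, skeletal actin, was at 11209 CPM on Day 7 against 14162 CPM on Day 14, and *Myh2*, the myosin of fast oxidative fibres, at 37.4 and 132 CPM (log2 ratio 1.82, interval 1.57 to 2.08). Slow fibre genes were 4 higher and 1 lower of 8, with *Myh7*, the slow myosin, at 0.45 and 18.6 CPM and *Tnni1*, slow troponin I, which immature fibres also make, at 48.2 and 16.9 CPM (log2 ratio -1.51, interval -1.9 to -1.13). Genes of regenerating fibres were lower in all 11 counted. *Mymx* and *Mymk*, which fuse myoblasts, were at 13.3 and 0.651 CPM and at 17.3 and 2.82 CPM, and *Myog*, the differentiation factor, at 34.4 and 10.8 CPM. *Myh3* and *Myh8*, embryonic and perinatal myosins, had log2 ratios of -1.34 (-2.22 to -0.52) and -2.08 (-2.46 to -1.71). In matrix-rich spots *Myh3*, *Myh8*, *Mymk* and *Tnnt2* had log2 ratios of 0.12, 0.28, 0.16 and 0.49, above no change but within 2-fold. The summed list was still lower there, at -0.93 (-1.08 to -0.78), with 3 of 6 counted genes lower and 0 higher. Muscle genes took over 5% of UMIs in 409 of 549 Day 7 spots and 533 of 697 Day 14 spots. Leaving these spots out gave 1367 higher and 902 lower genes in place of 1283 and 862. Their part in each named value is not described here.

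Of 11 counted genes of haemoglobin and iron handling, 4 were higher and 1 lower. *Hba-a1*, an alpha globin, was at 65.7 CPM on Day 7 against 447 CPM on Day 14 and *Hbb-bs*, a beta globin, at 144 and 691 CPM, with close copies (*Hba-a2*, *Hbb-bt*) that may share reads. *Ftl1*, ferritin light chain, was at 1538 and 410.0 CPM (log2 ratio -1.91, interval -1.98 to -1.83), and *Fth1*, the heavy chain, at 2313 and 1841 CPM. Of the 9 candidate inflammation genes that the study followed, 3 were lower and 1 higher, as *Lrrc17*, a secreted leucine-rich protein, had a log2 ratio of -2.97 (-3.33 to -2.62), *Saa3*, an acute phase protein, one of -1.89 (-2.71 to -1.14), *Itgbl1* one of -1.1 (-1.32 to -0.89) and *Pi16* one of 1.04 (0.89 to 1.18).

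To compare areas rich in matrix, the 25% of spots with the highest share of UMIs in 4 genes, *Col1a1*, *Col1a2*, *Col3a1* and *Sparc*, were taken in each section, giving 137 spots on Day 7 and 174 on Day 14. Of 8115 genes counted there, leaving out the selecting genes, 800 (9.86%) were higher and 546 (6.73%) lower. These matrix-rich spots held 41.8% of the UMIs on Day 7 and 23.1% on Day 14, and the lowest share that put a spot in the class was 7.57% on Day 7 and 4.61% on Day 14. Of them, 41 on Day 7 and 128 on Day 14 were also over the muscle limit, so the makeup of the class differs between the days, and the part of this in the values was not tested.

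Collagens other than the selecting genes were lower in 11 of 16 and higher in 0, with a summed log2 ratio of -1.48 (-1.51 to -1.44). *Postn* was at 5278 CPM on Day 7 and 1071 CPM on Day 14 there, and *Tnc* at 1313 and 214 CPM. Collagen processing genes were lower in 13 of 19, macrophage genes in 6 of 15 and endothelial genes in 8 of 13. The remodelling fibroblast genes, by contrast, were lower in 3 of 14 and had a summed log2 ratio of -0.17 (-0.24 to -0.11), and the granulation fibroblast genes were lower in 9 of 13, with -0.85 (-0.88 to -0.82). The granulation sum includes *Tpm1*, which skeletal muscle also makes. Median log2 ratios there were -0.29 for the remodelling list and -1.42 for the granulation list. The genes of the subcluster with *Pi16* had a summed log2 ratio of 0.76 (0.62 to 0.9) there, of 0.16 (0.08 to 0.23) in all marked spots and of -0.67 (-0.74 to -0.59) in unmarked spots, so their direction rested on which spots were kept. Hair genes were higher here too, 11 of 11 for the inner root sheath, at 4075 CPM on Day 14 against 5427 CPM over the whole section. Members with few UMIs on Day 7 were again counted only through Day 14. In matrix-rich spots with neither hair spots nor epidermis-rich spots the inner root sheath sum was still at 3966 CPM on Day 14, and in unmarked spots at 2264 CPM, and how far RNA spread between spots was not tested.

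**Figure D5:**
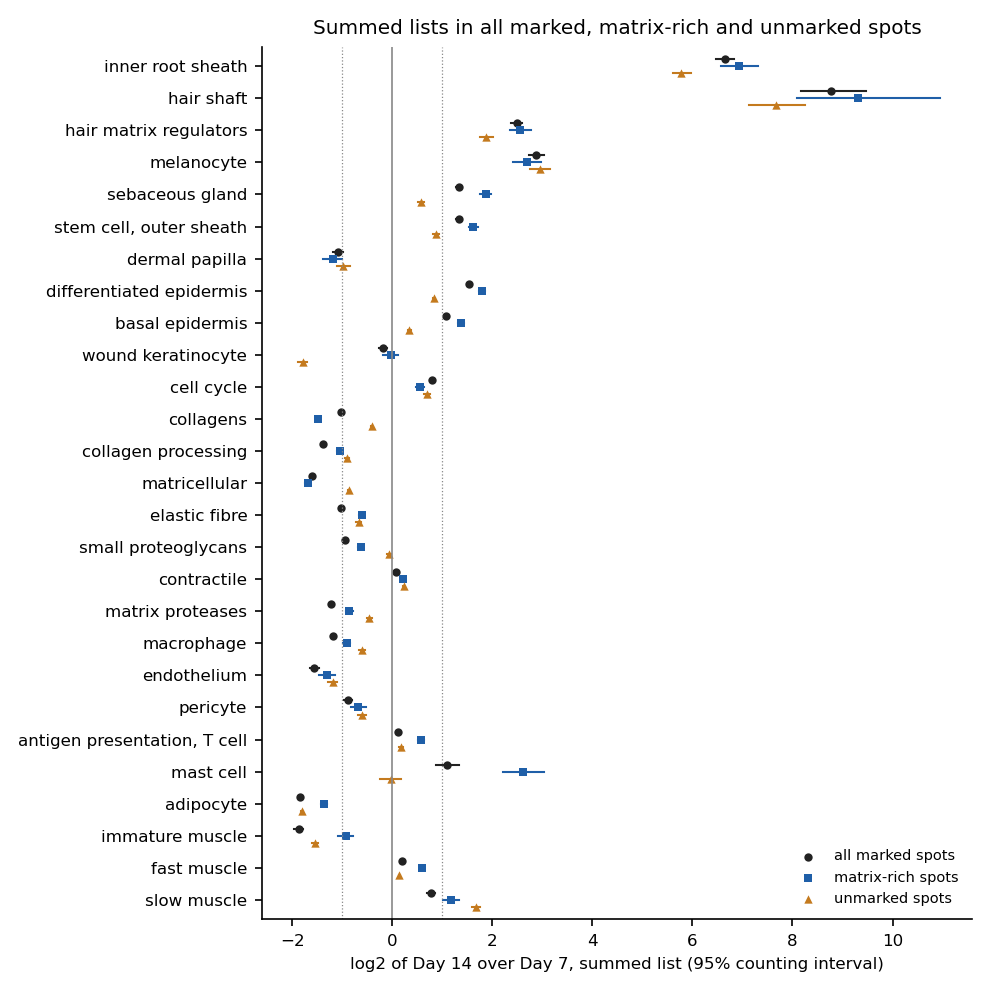
Log2 ratio of Day 14 over Day 7 for the summed UMIs of each list in all marked spots (black), in matrix-rich spots with the selecting genes left out (blue) and in unmarked spots (orange), with 95% counting intervals and dotted lines at 2-fold. Inner root sheath, hair shaft, matrix regulator, pigment and differentiated epidermis lists lie to the right of 0 in marked and matrix-rich spots, and collagen, macrophage, vessel and fat lists lie to the left.

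The unmarked spots of the slides, which entered none of the values above unless named, repeated the direction of the largest differences. The inner root sheath sum had a log2 ratio of 5.78 (5.6 to 5.96) there, the collagens one of -0.41 (-0.43 to -0.4), the endothelial list one of -1.19 (-1.28 to -1.1) and the adipocyte list one of -1.8 (-1.82 to -1.78). The collagen ratio was closer to 0 than in the marked spots. These spots belong to the same slides and are no replicate.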

How the data were processed

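Raw UMI counts per gene and spot were used as the authors deposited them, with no normalization; per the submitters' processing notes they were made with Space Ranger 1.3.0 on mm10, and the gene annotation is not given in the sources used here. Samples were grouped by the day in their labels, 1 section per day, so no test was made. Counts were summed over marked spots and expressed as CPM. Ratios carry exact conditional binomial 95% intervals and levels exact Poisson ones, for counting error only. A call needed 2-fold and 50 UMIs over both sections. A count of 0 was set to a floor of 3 counts over the section.

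The comparison, its 44 gene lists and the spot classes were chosen with earlier results of these data known. Named were the 15 highest and 15 lowest genes (predicted genes as a count), the candidate genes of the study, and in each list its most abundant, highest and lowest members and those whose role the text describes. Of 627 listed genes 6 were not matched to a single row and were not analysed here, and results that need certain other genes are not reported here. Spot classes were the 25% richest in matrix genes, the 10% richest in epidermal genes, and spots with over 5% muscle, 1% hair or 1% fat UMIs. Spots cover more than a single cell, so doublets were not called, and no deconvolution was run. Alternatives were the mean of spot CPM, TMM (edgeR 4.0.16) and DESeq2 1.42.0 size factors, other denominators, spot sets, minimums and thresholds. Python 3.11.15, numpy 2.4.6, scipy 1.17.1, pandas 2.3.3, matplotlib 3.10.9 and R 4.3.3 were used, and the intervals were tested on simulated counts. Promoter letters came from RefSeq on GRCm38.p6.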

Additional observations from a re-analysis of the deposited data

Results flagged for a closer look

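A called gene had the opposite direction, past 2-fold, in the unmarked spots of the same slides, and that difference was not tested. *Isg15*, an interferon-induced ubiquitin-like protein, was lower on Day 14 in marked spots (log2 ratio -1.88, interval -2.48 to -1.31, 26.3 and 7.16 CPM) and higher in unmarked spots (1.47, from 7.9 to 21.8 CPM).

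Unmarked spots, which were left out of the section sums, held 59.2% of the UMIs of the Day 7 slide and 50.6% of those of the Day 14 slide. What lay over them was not examined here.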

How the results depend on the processing

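The counts of 1283 higher and 862 lower genes stayed within 1.5 times under the mean of spot CPM, TMM and DESeq2 factors, another denominator, all spots of the slide, a minimum depth per spot, and without muscle, hair or fat spots, at 1072 to 1367 higher and 833 to 1081 lower. They moved further with other spots, minimums or thresholds, which test fewer or more genes: 800 and 546 in matrix-rich spots, 760 and 518 there without hair and epidermis-rich spots, 520 and 299 in epidermis-rich spots, 437 and 287 there without hair spots, 609 higher in unmarked spots, 597 and 479 with at least 200 UMIs, 2107 and 1754 with no minimum, 669 and 434 with the interval past 2-fold, and 356 and 147 at 4-fold. The median log2 ratio of 0.13 was 0.091 with the mean of spot CPM, 0.0042 with TMM, 0.0039 with DESeq2 size factors, 0.080 without the 100 most abundant genes, 0.092 over all spots, 0.196 without muscle spots, 0.109 without hair spots, 0.144 without muscle, hair and fat spots, 0.105 and 0.103 in the matrix-rich sets, 0.114 and 0.088 in the epidermis-rich sets, -0.00097 in unmarked spots, 0.111 with at least 200 UMIs and 0.109 with no minimum.

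Of 3240 values for 232 named genes, 1868 were classed as the same as in the main setting and 1350 as moved. The other 22 had the opposite sign to that of a called gene, and the cause was not tested. Of 616 values for the 44 lists, 126 were classed as the same, 489 as moved and 1 as reversed. The sizes of the ratios thus depended on the setting more often than their signs did. No intervals are given for the values of opposite sign, and some, down to 0.00039 for *Isg15*, were close to no change. *Kera* was at -0.47 without muscle, hair and fat spots. In matrix-rich spots, and there without hair and epidermis-rich spots, *Myh3* was at 0.12 and 0.069, *Myh8* at 0.28 and 0.35, *Mymk* at 0.16 and 0.26 and *Tnnt2* at 0.49 and 0.52. In epidermis-rich spots, and there without hair spots, *Eno1* was at 0.61 and 0.64 and *Notum* at -0.49 and -0.58, and in the second set *Elovl3* was at -0.045, *Isg15* was at 0.00039 and *Pi16* at -0.017. In unmarked spots *Isg15* was at 1.47, *Pi16* at -0.49, *Plod2* at 0.64, *Tgfb2* at 0.22, *Timp1* at 0.011, *Tnni1* at 0.55 and the mast cell sum at -0.035. The 3 sets of unmarked, matrix-rich and epidermis-rich spots without other classes were chosen after seeing the data.

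Leaving out a replicate could not be run, since each day has 1 section. No paired analysis was possible because each day holds 1 section.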

Other observations

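Of 15 nuclear-encoded respiratory chain genes 0 were past 2-fold in either direction, and their log2 ratios ran from -0.3 for *Uqcrfs1*, a subunit of complex III, to 0.52 for *Cox7a1*, a subunit of complex IV that muscle uses. Of 16 counted glycolysis and hypoxia genes 0 were higher and 2 lower, with *Gapdh*, the most abundant, at 1567 CPM on Day 7 against 2303 CPM on Day 14. *Eno1*, an enolase of most cells outside muscle, was one of the 2 lower, with a log2 ratio of -1.02 (-1.38 to -0.67), and it had the opposite direction in epidermis-rich spots. Genes of protein folding and export, which fibroblasts use to secrete matrix, were 3 lower and 0 higher of 20, beside 7.34% and 10.9% of all genes counted, and their summed log2 ratio was -0.4 (-0.43 to -0.37). *Kdelr3*, a receptor that returns proteins to the endoplasmic reticulum, was at 122 and 33.2 CPM (log2 ratio -1.88, interval -2.14 to -1.61), while *Hspa5*, the chaperone BiP, was at 358 and 423 CPM and *Calr*, calreticulin, at 618 and 462 CPM, within 2-fold.

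Interferon-stimulated genes were 5 lower and 0 higher of 10 counted. *Ifi27l2a* was at 655 CPM on Day 7 against 119 CPM on Day 14 (log2 ratio -2.47, interval -2.6 to -2.33) and *Ifitm3*, which blocks viral entry, at 533 and 252 CPM. *Ifit3*, another gene of the response, was at 13.3 and 24.5 CPM, within 2-fold.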
